A study of Homo sapiens with 4 samples.

Results

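MARCH1, FSIP2, LUST and FSBP are 4 transcripts of a table of 23615 genes. They were chosen by name for large falls in RNA recovered with SIRT7 against total RNA. All 4 were found in the table, and none had an entry marked as failed. All 4 passed the filter on low counts, FSBP through its input libraries alone. The RIP libraries of MARCH1 would not have passed it by themselves. The cells were HEK293T, an established line from human embryonic kidney, with stable overexpression of Flag-tagged SIRT7 and 10 to 15 passages in culture. SIRT7 is a lysine deacylase of the nucleolus and nucleus, and every library came from this line. The 2 input libraries hold total cellular RNA, and the 2 RIP (RNA immunoprecipitation) libraries hold RNA that came down on anti-Flag gel. Both groups had ribosomal RNA removed before strand-specific libraries were made. No pull-down from cells without the tag was analysed here, so RNA held by the gel itself was not subtracted. Nothing in the labels ties the 2 libraries of a group to separate cultures, so p-values measure the spread between these libraries, which may be technical.

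The transcripts come from unrelated genes. MARCH1 encodes a membrane-bound RING-CH ubiquitin ligase that, in antigen-presenting cells, marks MHC class II and CD86 for removal from the surface. FSIP2 encodes a very large protein of the fibrous sheath, the structure that surrounds the axoneme in the sperm tail. LUST, now named RBM5-AS1, is a long non-coding RNA that lies inside the gene of the splicing factor RBM5 on the opposite strand. FSBP encodes the fibrinogen silencer binding protein, a repressor of the fibrinogen gamma chain gene, and lies within the span of RAD54B, a DNA translocase gene of homologous recombination.

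Depth was 18131602 and 17310753 estimated fragments in input and 25655455 and 25998032 in RIP. Of 14555 tested genes, 77.7% were called in either direction by edgeR (adjusted p under 0.05), 38.0% higher and 39.7% lower in RIP. On 45.5% of tested genes both RIP libraries lay below both input libraries. All 4 transcripts did so too, which the choice of members fixed, so that count is not read as a result. Their fold changes are given as a description, with no test. Fold changes are on the TMM scale, where the median gene was at -0.03 on the log2 scale. With library totals it was at -0.76. In bulk RNA, a lower recovery of a transcript and a lower share of it among all recovered RNA cannot be told apart.

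MARCH1 had 259 and 251 fragments in the input libraries and 10 and 16 in the RIP libraries. Both RIP values were far below both input values, although the RIP libraries were the deeper ones. As CPM (counts per 1000000 fragments on TMM-scaled library sizes) the level averaged 11.2 ± 0.242 in input and 0.647 ± 0.206 in RIP (SD, n = 2 each), a 17.1-fold fall (log2 fold change -4.10, SE 0.226). The 4 ratios of one input library to one RIP library ran from 13.9 to 22.6. That spread came from the RIP side. The first input library had 0.97 times the CPM of the second (95% exact binomial interval 0.812 to 1.16), and the first RIP library 0.633 times that of the second (0.257 to 1.48). Neither interval left out equality, and the RIP interval was wide because it rests on few fragments.

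FSIP2 had 394 and 302 fragments in input and 23 and 18 in RIP. Again the groups did not overlap. Its level was 15.2 ± 2.18 CPM in input and 1.02 ± 0.185 CPM in RIP (SD, n = 2 each), a 14.8-fold fall (log2 fold change -3.89, SE 0.203). Pairs of libraries gave ratios from 11.8 to 18.8. FSIP2 had the least even input values of the 4. The first input library was at 1.23 times the second (95% interval 1.05 to 1.43), beyond counting error. Of the 1000 tested genes nearest to it in input count, 9.2% differed more between the 2 input libraries. The RIP libraries differed by a factor of 1.29 (0.668 to 2.54).

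LUST had 503 and 411 fragments in input and 29 and 31 in RIP. It was the most evenly depleted of the transcripts with RIP fragments. The level fell from 19.97 ± 1.98 CPM (SD, n = 2) to 1.496 ± 0.0575 (n = 2), which is 13.3-fold (log2 fold change -3.73, SE 0.167). The pairwise ratios spanned only 12.1 to 14.7. Its RIP libraries stood at a ratio of 0.947 (95% interval 0.551 to 1.62), and 86.7% of the 1000 genes nearest in RIP count differed more. Its input libraries stood at 1.15 (1.01 to 1.31), beyond counting error, and 20.5% of the 1000 genes nearest in input count differed more.

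FSBP had 118.485 and 95.3311 estimated fragments in input and 0.00141535 and 0.00273716 in RIP. These are not whole numbers, and after rounding both RIP libraries were at 0. The input level was 4.65 ± 0.509 CPM (n = 2). Against a floor of 3 counts per RIP library (0.15 CPM on average) FSBP was at least 31.1-fold lower. The floor covers counting error alone, and does not cover the authors' division of fragments between overlapping genes. The input libraries differed by a factor of 1.17 (95% interval 0.884 to 1.55), within counting error. Intervals and floors throughout treat fragments as independent molecules, which PCR copies are not.

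**Figure D1:**
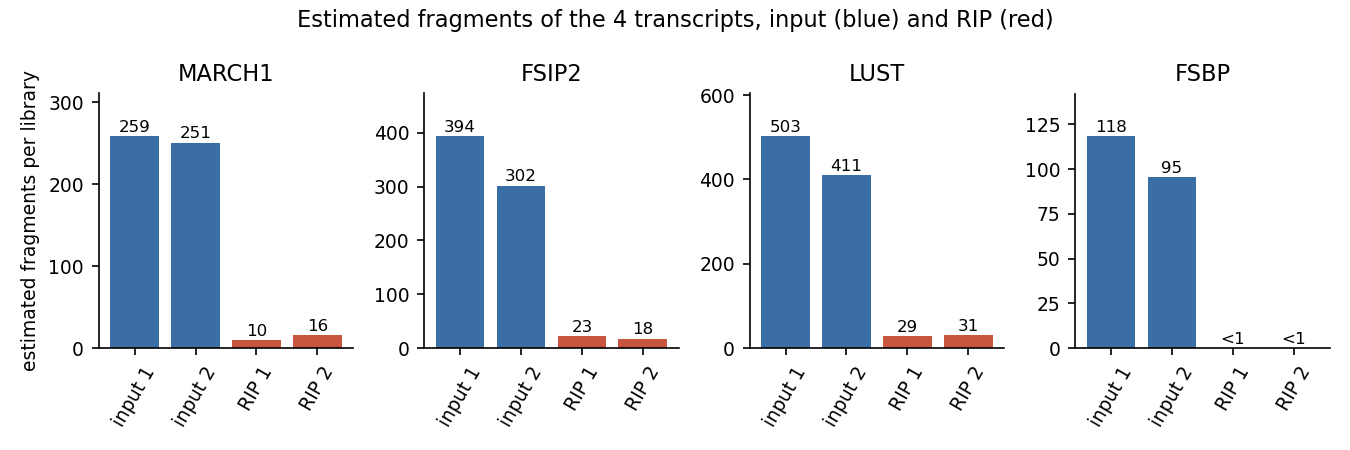
Estimated fragments (vertical axis, linear from 0) of MARCH1, FSIP2, LUST and FSBP in each of 2 input libraries (blue) and 2 RIP libraries (red), with the rounded value above each bar. Input bars reach 259, 394, 503 and 118 in the first library, and no RIP bar exceeds 31.

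Levels can be set against each other only per length, as FPKM (fragments per kilobase and per 1000000 fragments, as deposited). In input LUST was the highest at 15.6 ± 1.34 FPKM (SD, n = 2), above 70.9% of tested genes. MARCH1 followed at 1.99 ± 0.0688 FPKM and FSBP at 0.829 ± 0.0803. FSIP2 was lowest at 0.673 ± 0.088, above 13.2% of tested genes. The last neighbours in this order lay close: FSBP had 0.886 and 0.772 FPKM and FSIP2 0.735 and 0.61. Thus the transcript with the second highest input count, FSIP2, had the lowest level per length. In RIP the order was LUST (1.18 ± 0.0436 FPKM), MARCH1 (0.117 ± 0.037), FSIP2 (0.0459 ± 0.00837) and FSBP, listed at 1.278e-05 and 2.436e-05 FPKM. LUST went from above 70.9% to above 22.02% of tested genes, and MARCH1 from above 25.8% to above 4.03%.

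The 4 transcripts differ widely in effective length, the length over which the authors' program counts fragments, recovered here as scaled fragments over FPKM. Relative to the median tested gene it was 0.441 for LUST, 1.93 for MARCH1, 1.94 for FSBP and 7.77 for FSIP2. LUST was longer than 13.2% of tested genes, MARCH1 than 84.1% and FSIP2 than 99.9%. Across all tested genes, long transcripts were lower in RIP (Spearman rho = -0.60 over 14555 genes, which share the same 4 libraries). The trend passed through -0.70 on the log2 scale at the length of MARCH1, -1.96 at that of FSIP2 and 0.85 at that of LUST.

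Taking the trend out with offsets moved the members apart. LUST went to -4.58, since short transcripts were mostly higher in RIP. MARCH1 went to -3.39 and FSIP2 to -1.93, so the distance of FSIP2 from genes of its own length was about as large as the trend itself. Since FSIP2 is longer than 99.9% of tested genes, the trend at its length rests on few of them. The bound of FSBP went from -4.96 to -4.25. Among the 10% of tested genes closest in length rank that hold LUST (1455 genes, 0.377 to 0.55 times the median length) the median log2 fold change was 0.75, and 6 genes had a lower value than LUST. In the 10% that hold MARCH1 (1455 genes, median -0.81) 3 had a lower value, FSBP among them. In the longest 10% (1456 genes, 2.31 to 34.1 times the median length, median -1.13) 5 had a lower value than FSIP2. Nearly all of these genes are shorter than FSIP2, so this group is not matched to its length.

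**Figure D2:**
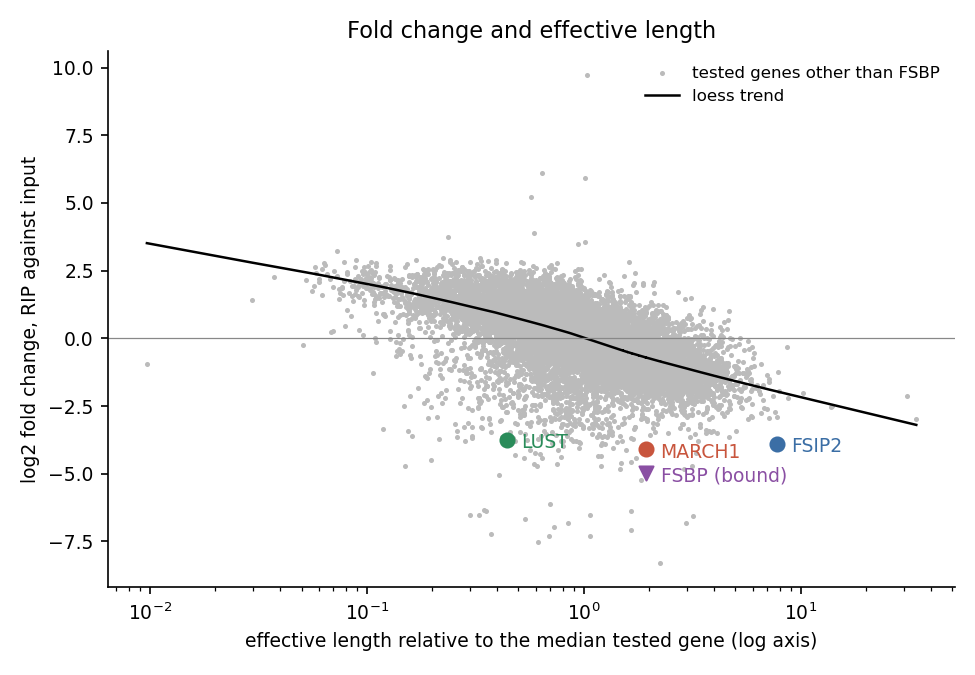
Log2 fold change of RIP against input (vertical axis) by effective length relative to the median tested gene (horizontal log axis), with tested genes other than FSBP in grey, the loess trend as a line and the 4 transcripts in colour, FSBP as the bound of -4.96. LUST lies furthest from the trend among the 3 with fitted values, and FSIP2 lies at the long end.

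LUST shares its place with RBM5, so both were set side by side. RBM5, which encodes an RNA-binding splicing regulator that promotes apoptosis, had 44.2 and 40.2 FPKM in input and 66.0 and 60.9 in RIP. LUST had 16.5 and 14.6 FPKM in input and 1.15 and 1.21 in RIP. For each 100 FPKM of RBM5 there were 37.4 and 36.3 FPKM of LUST in input and 1.74 and 1.99 in RIP. On the TMM scale the host mRNA went the other way from the antisense RNA, and RBM5 rose 1.495-fold (log2 fold change 0.58, SE 0.0756, edgeR adjusted p = 3.629e-06). Its direction turned with library totals (-0.15, adjusted p = 0.07766). The libraries keep strand, but whether the counting used strand is not given in the sources used here. Without strand, fragments of LUST and of RBM5 in the shared stretch cannot be told apart.

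The start of LUST is shown because it is the only non-coding member and its first bases can be read from RefSeq. The window runs over chr3:50100939-50101238 of GRCh38.p14, minus strand, 5′ to 3′, and lies inside RBM5. Capitals mark the first 50 bases of the RNA, and lower case the 250 bases before them. The authors' files use hg19, so these coordinates are not theirs.
LUST start: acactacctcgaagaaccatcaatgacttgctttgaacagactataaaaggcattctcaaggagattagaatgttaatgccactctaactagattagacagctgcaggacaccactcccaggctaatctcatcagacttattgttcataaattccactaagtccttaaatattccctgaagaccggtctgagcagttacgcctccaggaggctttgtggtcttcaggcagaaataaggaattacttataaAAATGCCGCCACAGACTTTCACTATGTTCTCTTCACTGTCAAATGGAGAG
The window holds 4 CpG pairs and 41.7% G and C, against medians of 14 and 58.7% over 35116 RefSeq start windows of this length. The FSIP2 window holds 20 CpG pairs, and the 3 windows of MARCH1 hold 30, 3 and 13.

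FSBP was read against RAD54B in the same way. RAD54B had 1087.52 and 986.669 estimated fragments in input and 925.999 and 918.997 in RIP, also not whole numbers. FSBP took 9.82% and 8.81% of the fragments of the pair in input, and 0.000153% and 0.000298% in RIP. RAD54B alone was at 45.4 ± 1.14 CPM (n = 2) in input and 46.0 ± 0.646 (n = 2) in RIP. Its log2 fold change was 0.02 (SE 0.0784, edgeR adjusted p = 0.8368), with 0.21 after length correction (adjusted p = 0.02866) and -0.71 with library totals (adjusted p = 7.219e-07). Counted as 1 gene, a choice made after the values were seen, the pair stood at 51.2 and 48.9 CPM in input and 46.5 and 45.5 in RIP, a log2 fold change of -0.12 (SE 0.078). The effective length given to RAD54B also differed, at 1.26 and 1.25 times the median gene in input and 1.15 in both RIP libraries. The part that the division of fragments has in the FSBP value was not tested.

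**Figure D3:**
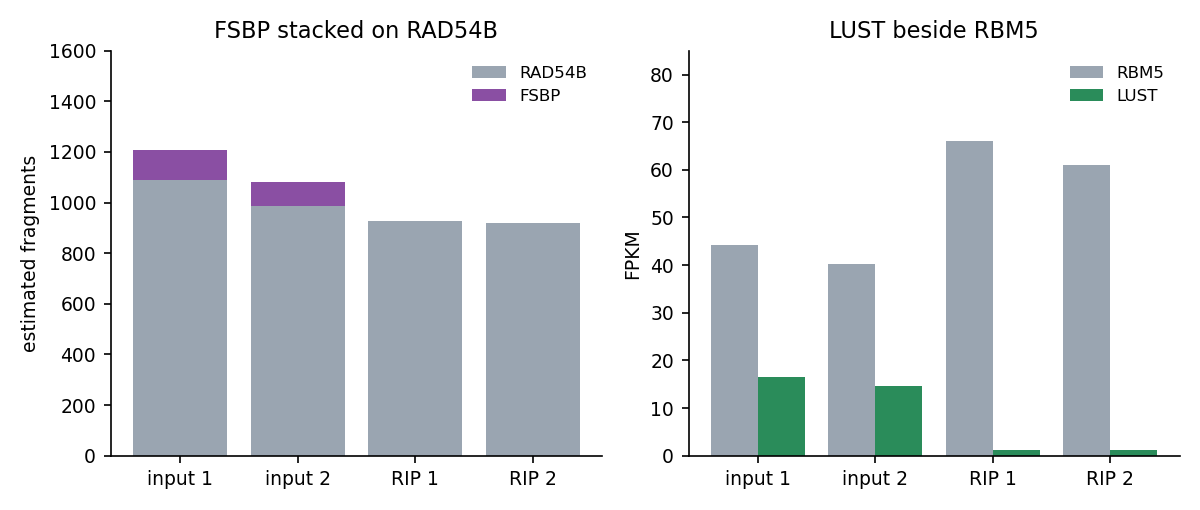
Left, estimated fragments of RAD54B (grey) with FSBP stacked on top (purple) in each library; right, FPKM of RBM5 (grey) and LUST (green) in each library. FSBP adds 118 and 95 fragments in input and less than 1 in RIP, while LUST falls from 16.5 and 14.6 to 1.15 and 1.21 FPKM beside an RBM5 that stands at 40.2 or more.

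For MARCH1 and FSIP2 little could be measured of overlapping genes. In RefSeq 5 genes overlap MARCH1, and the table holds 1 of them, ANP32C, at 0 fragments in all 4 libraries. Of the 2 antisense genes that overlap FSIP2, none is named in the table, so their fragments were not measured here, nor were those of the other genes that overlap MARCH1. TMA16, a ribosome biogenesis factor gene next to MARCH1, rose from 39.5 ± 1.33 to 65.8 ± 0.17 CPM (n = 2 each, log2 fold change 0.74, edgeR adjusted p = 2.887e-07). That call was lost with library totals (0.0063, adjusted p = 0.9407).

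Among the other MARCH genes, 7 of 10 were tested, 4 were higher, 1 lower and 2 passed neither side. The background was 38.0% higher and 39.7% lower. MARCH2, a ligase of endosomes and the secretory pathway, had 10.9 and 11.4 CPM in input and 55.6 and 51.3 in RIP, a 4.80-fold rise (edgeR adjusted p = 8.192e-12). MARCH9, a Golgi ligase, rose by 1.51 on the log2 scale and MARCH3 by 1.15. MARCH5 of the outer mitochondrial membrane rose by 0.35, but stood at -0.38 with library totals. MARCH6, a large ligase of the endoplasmic reticulum with 3.53 times the median length, fell by 1.26 on the log2 scale, and length correction took it to 0.0072 (adjusted p = 0.947). MARCH8, the closest relative of MARCH1, had 19.2 and 17.9 CPM in input and 20.1 and 20.7 in RIP. Its log2 fold change was 0.14 (adjusted p = 0.2045), and changed sign to -0.59 with library totals (adjusted p = 5.773e-05) and to -0.12 with the length offsets. MARCH7 was at -0.07 (adjusted p = 0.3994), at -0.80 scaled by library totals and at 0.14 with the length offsets. MARCH4 had no fragment in any library, MARCH10 had 4 and 1 in input and 8 and 7 in RIP, and MARCH11 had 1 in all. With library totals, where 82.6% of all tested genes were called (17.0% higher, 65.5% lower), 3 of the 7 were higher and 4 lower. With the length offsets, where 68.3% were called (33.6% higher, 34.6% lower), edgeR called 4 of the 7 higher and 0 lower.

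**Figure D4:**
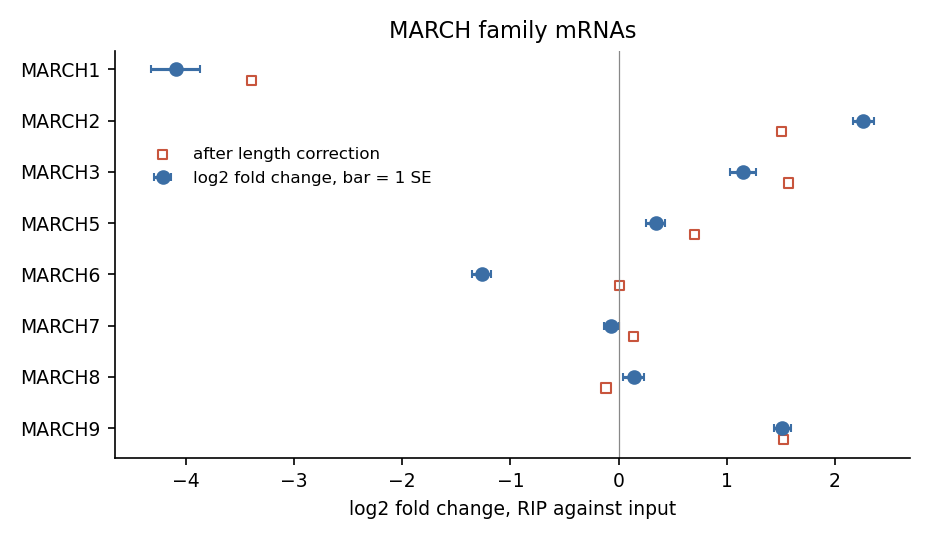
Log2 fold change of RIP against input (horizontal axis) for the 8 tested MARCH genes, with bars of 1 SE, and the value after length correction as open squares. MARCH1, chosen for its fall, is at -4.10, and the other 7 lie between -1.26 and 2.26.

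Surface proteins that MARCH1 acts on and genes of antigen presentation were measured in part. Of 15 listed genes 8 were tested, with 4 higher and 2 lower (background 38.0% and 39.7%) and a median log2 fold change of 0.62 (all genes -0.03). The immunoglobulin-family protein gene BSG rose from 302.6 and 359.7 to 665.0 and 656.2 CPM, and the amino acid transporter subunit gene SLC3A2 rose 1.95-fold. With library totals BSG was at 0.27 and SLC3A2 at 0.23 on the log2 scale. The 2 lower genes, singled out after their values were seen, were INSR (-1.07) and TFRC (-0.83). Length correction took INSR to 0.13 and TFRC to -0.18. CD86, a classical MARCH1 target, was at 0 in all libraries. With library totals 3 were higher and 4 lower (background 17.0% and 65.5%), and after length correction 3 and 1 (background 33.6% and 34.6%).

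Among genes of the fibrous sheath and sperm flagellum more were lower than higher. Of 34 listed, 29 were in the table and 21 were tested, of which 4 were higher and 13 lower (61.9%, against 39.7% of all tested genes), with a median of -0.62. Length correction left 0 higher and 10 lower by edgeR (47.6%, against 34.6% of all; median -0.43). Library totals gave 0 and 17 (81.0%, against 65.5% of all). SPAG17, singled out after its value was seen, had 23 and 19 fragments in input and 4 and 4 in RIP. It passed the filter through input alone, so its call is not read as a result. That gene is among the 13 lower and the 17 lower, but not among the 10 (edgeR adjusted p = 0.05233 with the length offsets). Both medians of this list include it. FSIP1, named for the same sheath, had 21 and 24 fragments in input and 12 and 19 in RIP (log2 fold change -0.35, edgeR adjusted p = 0.4118). It was at -1.07 with library totals (adjusted p = 0.01726). PRKAR1A and PRKAR2A, regulatory subunits of protein kinase A that many other cells use too, fell by 0.63 and 0.67. WDR52, an axonemal protein gene also known as CFAP44 and singled out after its value was seen, fell by 2.49. AKAP4, the main sheath protein gene, and ROPN1 were at 0 in every library.

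Of 22 tested genes of the RBM5 locus and family, 15 were higher (68.2%, against 38.0% of all tested genes) and 1 lower, with a median of 0.57. Length offsets gave 12 higher (54.5%, against 33.6% of all) and 3 lower, and library totals 9 higher (40.9%, against 17.0% of all) and 9 lower. The list includes RBM10, a relative of RBM5 on another chromosome, singled out after its value was seen, which rose by 2.21. The lower one was RBM6, the neighbour and relative of RBM5, which fell from 81.6 ± 10.1 to 50.4 ± 5.83 CPM (n = 2 each, log2 fold change -0.70, edgeR adjusted p = 7.354e-06). IFRD2, a translation regulator gene, rose by 2.61 on the log2 scale.

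Among 19 genes of homologous recombination, 5 were higher and 8 lower, with a median of -0.08. The 42.1% lower is near the 39.7% of all tested genes. Length offsets gave 5 and 9 (background 33.6% and 34.6%), and library totals 2 and 15 (background 17.0% and 65.5%). XRCC2, a gene of homologous recombination repair, fell 5.35-fold, from 129.2 and 105.6 to 21.4 and 22.5 CPM. RAD51C, which also acts in that repair, was at 0.72, a direction that turned after length correction (-0.46) and with library totals (-0.0063). Of 13 fibrinogen and Myb/SANT-like domain genes 9 were tested, with 2 higher and 6 lower (median -0.76; length offsets gave 2 and 6, library totals 1 and 7). The fibrinogen chain gene FGA was at 0 in every library. MYBL2, a cell cycle transcription factor gene, rose by 1.17, and MSANTD3 was at -0.10 (edgeR adjusted p = 0.4104), at 0.013 without the first RIP library, at -0.67 after length correction (adjusted p = 5.19e-05) and at -0.83 with library totals (adjusted p = 4.491e-06).

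Over all lists, 106 of 151 listed genes other than the 4 transcripts were tested, of which 36.8% were higher and 35.8% lower, near the background of 38.0% and 39.7%. Their median was -0.03, as for all genes. The lowest of them was SYCP3, a meiotic chromosome gene singled out after its value was seen, at -2.95. It had 25 and 12 fragments in input and 4 and 0 in RIP, and passed the filter through input alone.

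Markers of cells in which MARCH1 and FSIP2 are best known were measured in part. Of 13 spermatogenic markers 5 were tested, with 0 higher and 4 lower by edgeR (median -1.86; length offsets gave 0 and 3, library totals 0 and 5). The background was again 38.0% higher and 39.7% lower (length offsets 33.6% and 34.6%, library totals 17.0% and 65.5%). TEX14 had 38 and 29 fragments in input and 7 and 9 in RIP, and SYCP3 25 and 12 against 4 and 0. ACRV1 had 17 and 14 in input against 5 and 0 in RIP. TEX14, SYCP3 and ACRV1 passed the filter through input alone, so their calls and the median of this list are not read as a result. PRM1, PRM2, TNP1, TNP2, ODF1 and ZPBP had no fragment in any library. The list summed to 26.2 and 24.8 FPKM in input and 23.7 and 21.8 in RIP, most of it ODF2 (21.0 and 20.6 on average), a centrosomal gene of many cell types that edgeR called lower with library totals only (-0.73, adjusted p = 2.081e-07). SPATA18, with 290 and 257 fragments in input, fell by 0.62, a call that ended with the length offsets (-0.16, edgeR adjusted p = 0.3238). Of 12 B cell and dendritic cell markers 4 were tested, with 2 higher and 1 lower (length offsets gave 1 and 1, library totals 0 and 2). CD83, with 220 and 251 fragments in input and 355 and 370 in RIP, rose by 0.81, but not with library totals (0.077, edgeR adjusted p = 0.5599). LYZ fell by 1.21, a call lost without the first RIP library (-0.73, edgeR adjusted p = 0.05228). MS4A1 and CLEC9A were at 0, and the list summed to 7.71 and 8.07 FPKM in input and 10.2 and 11.8 in RIP. All 12 markers listed for the kidney line had fragments, with VIM at 225.7 and KRT18 at 34.6 FPKM on average in input. VIM was at 0.70 and KRT18 at 1.11 on the log2 scale, VIM turning to -0.03 with library totals. That list had 3 higher and 2 lower of 11 tested (length offsets gave 4 and 2, library totals 2 and 7). The part of these cells' RNA in the member values was not tested.

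Other genes fell as far. Among 5410 genes with a mean of at least 50 counts over the libraries and both RIP libraries below both input libraries, MARCH1 ranked 4, FSIP2 5 and LUST 8 by fitted log2 fold change, the quantity they were chosen for. Over all 14555 tested genes they ranked 46, 52 and 67. FSBP ranked 1, on a fitted value that depends on the prior count. Ahead of MARCH1 lay N4BP2L2-IT2 (-4.42) and LOC286437 (-4.39), and between FSIP2 and LUST lay KCNJ13 (-3.87) and PHOSPHO2-KLHL23 (-3.79). GOLGA8B (-3.72) came just after LUST. Their effective lengths ran from 0.788 times the median for LOC286437 to 1.75 for N4BP2L2-IT2, shorter than FSIP2 and longer than LUST.

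Likeness of pattern was taken as the Euclidean distance between centred log2 CPM values over the 4 libraries. The choice of members used the same libraries, so the genes found near them are other large falls. That they fall too is not read as a result. The nearest genes to LUST were LINC00174 (0.117), GOLGA6L4 (0.148) and SHISA9 (0.212). To FSIP2 they were LINC00174 (0.269), PFN1P2 (0.28) and LUST itself (0.324), and to MARCH1 CCDC39 (0.423), N4BP2L2-IT2 (0.461) and LUST (0.495). SHISA9, as an example, had 36.7 and 30.3 CPM in input and 2.86 and 3.07 in RIP. For FSBP, at 0 counts in both RIP libraries after rounding, the prior count sets the RIP values, so its distances are not given. For the other members, whose RIP counts are low, the distance depends on the prior count of 2 that was added before the log. The same holds for nearest genes with few RIP counts. LINC00174, GOLGA6L4 and CCDC39 passed the filter on low counts through input alone. GOLGA6L4 was at 0.05 CPM and LINC00174 at 0.2 CPM in each RIP library, with log2 fold changes of -4.81 and -4.14, further down than LUST.

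**Figure D5:**
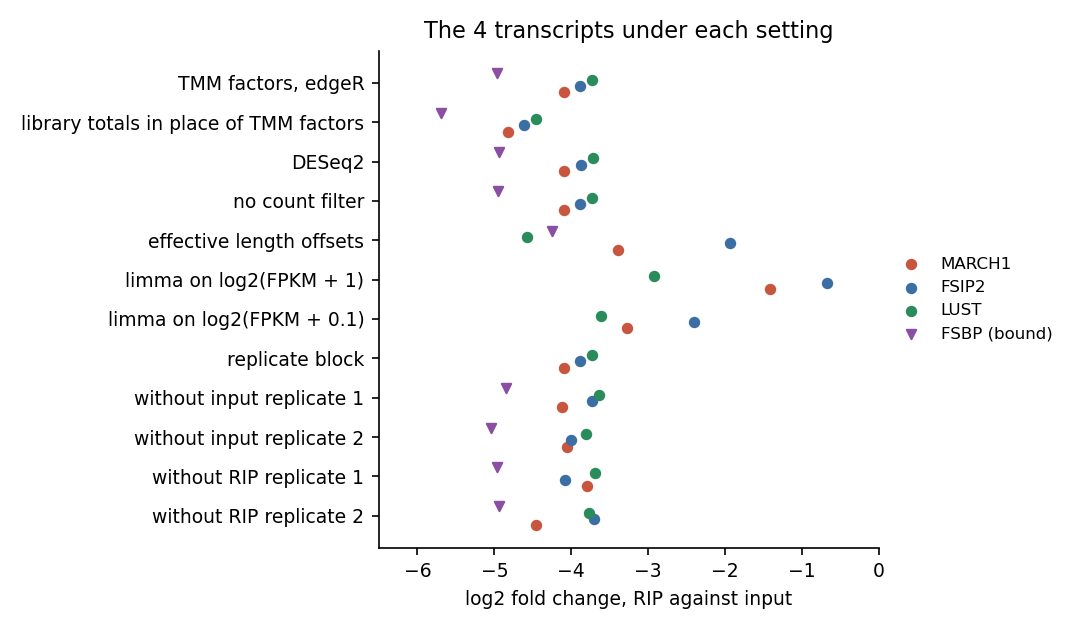
Log2 fold change of RIP against input (horizontal axis) for MARCH1, FSIP2 and LUST, and the log2 bound for FSBP, under each setting (vertical axis). All values lie below 0, FSIP2 moves most under the length offsets (-1.93) and on log2(FPKM + 1) (-0.68), and no FSBP bound is drawn for the FPKM scales or the block.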

How the data were processed

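RNA was sequenced from 2 input and 2 RIP libraries, grouped by their titles. The submitters' processing notes name Cuffdiff 2.2.1, TopHat2 2.0.13, Bowtie2 2.2.6 and cutadapt 1.5, and the build hg19. How reads with several positions were counted, the annotation and the strand setting were not given in the sources used here. The deposited expected counts hold what the authors' program estimated as fragments of each gene (98.1% whole within 1e-06); the deposited scaled signal is the same divided by 1 factor per library, and the deposited FPKM is the authors' value per length. Libraries are numbered from 0 in the file and from 1 in the labels, so a number only names a library. No column of other samples was present.

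Counts were rounded, filtered with filterByExpr (minimum count 10, total 15) and tested (R 4.3.3, edgeR 4.0.16: TMM, glmQLFit, glmQLFTest, Benjamini-Hochberg at 0.05 over 14555 genes). SE is the log2 fold change over the square root of F. Length correction used a loess trend (span 0.5) of fold change on log2 effective length as an offset. Likeness used a prior count of 2. DESeq2 1.42.0 and limma 3.58.1 were alternatives. The test was checked on simulated data. RefSeq tables (GRCh38.p14) named all 4 members, and start windows matched 3. RefSeq gene coordinates were used to find the genes that overlap a member, and not to count fragments.

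The members and gene lists were chosen with earlier results of these data known. Named are the members, tested MARCH genes, RBM5, RBM6, RAD54B and FSIP1, the 2 most abundant tested genes of each other list in input, the 3 nearest genes by pattern, the 5 largest other falls with a mean of 20 counts in input, and neighbours; others are marked.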

Additional observations from a re-analysis of the deposited data

How the results depend on the processing

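The 4 transcripts stayed lower in RIP under every setting that gave a value. They were chosen for this fall in the same libraries, so the direction is not read as a result. With library totals MARCH1 was at -4.82, FSIP2 at -4.62, LUST at -4.46 and the FSBP bound at -5.69 on the log2 scale. With effective length offsets they were at -3.39, -1.93, -4.58 and -4.25. On log2(FPKM + 1) MARCH1 was at -1.42, FSIP2 at -0.68 and LUST at -2.92, and on log2(FPKM + 0.1) MARCH1 was at -3.28 and FSIP2 at -2.40; a pseudocount of this size understates falls of low transcripts. Leaving out 1 library in turn gave -4.45 to -3.80 for MARCH1, -4.08 to -3.71 for FSIP2, -3.81 to -3.63 for LUST and -5.05 to -4.85 for the bound. DESeq2 and no count filter moved these 4 by less than the spread between libraries. A bound for FSBP was not run on the FPKM scales or with the block.

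Library totals gave 2481 genes higher and 9539 lower against 5531 and 5783, and 20 and 70 of the listed genes against 39 and 38. Leaving out 1 library gave 5142 to 5525 higher and 5227 to 5579 lower, and 35 to 37 and 31 to 39 of the listed genes. ODF2, at -0.0016, turned to 0.015 with DESeq2, 0.00069 without a filter and 0.17 after length correction, and ran from -0.020 to 0.030 when 1 library was left out. With library totals RBM5 turned to -0.15, RAD54B to -0.71, MARCH5 to -0.38, MARCH8 to -0.59, RAD51C to -0.0063 and VIM to -0.029. Length offsets turned MARCH6 to 0.0072, MARCH7 to 0.14, MARCH8 to -0.12 and RAD51C to -0.46. RAD54B turned to -0.12 when counted together with FSBP, an alternative chosen after seeing the data. MSANTD3 ran from -0.21 to 0.013 when 1 library was left out. The cause of these moves was not tested.

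The labels give both groups the same replicate numbers, but nothing says that a number marks a shared culture, and deviations of same-numbered libraries correlated at 0.0409. The fit with this number as a block gave 5580 genes higher and 5862 lower, with MARCH1 at -4.10, FSIP2 at -3.89 and LUST at -3.73. Few fragments limit the RIP values: no member has more than 31 there.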

Other observations

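Near-complete loss from one group was rare among well-counted genes. In input 12233 genes had a mean of at least 50 estimated fragments. Of these FSBP, chosen for its fall, was the only 1 with less than 1 fragment in both RIP libraries. Counted as 1 gene with RAD54B it was at -0.12 on the log2 scale, and the part of the division of fragments was not tested. In the other direction, 3 of 11874 genes had a mean of at least 50 fragments in RIP and less than 1 in both input libraries. All of these had values that are not whole numbers, as had 546 genes of the table. UBE2F-SCLY had 0.016988 and 0.0119729 fragments in input and 90.1754 and 107.485 in RIP. The other 2 did not repeat between the RIP libraries. ABHD14A-ACY1 had 0.0219497 and 240.252 there, and H3F3A 124.43 and 0.0329534. These genes were singled out after their values were seen.

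Among genes with fewer fragments, the largest falls outside the 4 transcripts were in TMX2-CTNND1, KCNMB3, GCNT7, TICAM2 and ARGFXP2. KCNMB3, a potassium channel subunit gene, had 24 and 25 fragments in input and 0 in both RIP libraries. GCNT7 had 21 and 21 against 0. TMX2-CTNND1 had 27.2044 and 56.1447 in input and less than 1 in RIP, and its values are not whole numbers. All 5 were at 0 counts in both RIP libraries after rounding and passed the filter through input alone. A fitted fold change of these 5 depends on the prior count and is not given. Their order depends on it too, and is not read as a result.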
